A study of Mus musculus with 12 samples.

Results

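Gm28928 (ENSMUSG00000100851) is 1 of 31053 genes in a count matrix of single nuclei of mouse motor cortex (M1), dissected at the caudal forelimb area, which controls forelimb movement. It was picked by name, because an earlier reading of these counts had called it higher in trained than in control mice in the Sncg class of GABAergic interneurons. Its difference between the groups is therefore given here as values, without a test. Both groups were 13 weeks old and lived on 1 mL of water a day. The 3 control mice (1, 3 and 5) drank it in the home cage, with no motor training. On days 11 to 13 the 3 trained mice (2, 4 and 6) earned part of theirs by pressing a lever with the left paw while head-fixed. The tissue came from the right hemisphere, each animal was sequenced in a shallow and a deep run, and the deposited matrix pools both, so the mouse is the replicate. Of 51926 barcodes, 49292 nuclei were kept, 5265 to 11817 per mouse, with medians of 5215 to 6874 UMIs (unique molecules counted) per nucleus in control mice and 5749 to 7205 in trained mice. Of the 49292, 570 nuclei carried a barcode sequence found in more than 1 mouse, among them 4 Sncg nuclei.

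Long intergenic noncoding RNAs are transcribed and usually spliced like messenger RNAs but carry no long open reading frame, and many stay in the nucleus, where a nuclear assay counts them. Cortical neurons fall into glutamatergic cells, which project between layers and areas, and GABAergic interneurons, which inhibit locally. The interneurons divide into Pvalb, Sst, Vip, Lamp5 and Sncg classes. Sncg cells, rich in cholecystokinin and the cannabinoid receptor Cnr1, are among the scarcest of them in cortex.

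In GENCODE M21 on the mm10 build, Gm28928 is a lincRNA on the minus strand of chr1:124505757-124846039, 340 kb long. Its single transcript has 3 exons that add up to 1443 bases, 0.424% of the span, and exons 1 and 2 are separated by an intron of 335421 bases. The longest stretch from an ATG to a stop in the transcript is 85 codons. The start of exon 1, the whole of exon 2 and the end of exon 3 are printed because they identify the annotated transcript, and because 3′ capture primes at its end. They were read from the GENCODE M21 transcript, 5′ to 3′ on the minus strand; the capitals mark an AATAAA polyadenylation hexamer that ends 54 bases before the annotated 3′ end.
Exon 1, first 150 bases (chr1:124845890-124846039): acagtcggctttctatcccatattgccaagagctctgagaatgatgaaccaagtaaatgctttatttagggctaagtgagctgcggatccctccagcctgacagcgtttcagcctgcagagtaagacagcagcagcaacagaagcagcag
Exon 2, all 67 bases (chr1:124510231-124510297): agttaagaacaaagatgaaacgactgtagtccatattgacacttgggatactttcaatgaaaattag
Exon 3, last 180 bases (chr1:124505757-124505936): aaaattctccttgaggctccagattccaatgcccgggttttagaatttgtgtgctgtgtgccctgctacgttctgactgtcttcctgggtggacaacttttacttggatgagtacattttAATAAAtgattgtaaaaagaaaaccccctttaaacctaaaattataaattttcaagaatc

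The nearest protein-coding gene downstream is Dpp10, which encodes an auxiliary subunit of Kv4 potassium channels and lies on the same strand, 460 kb from the 3′ end of Gm28928 in GENCODE. RefSeq (GRCm38.p6) draws Dpp10 longer, from 123332138 to 124845815, so that its 5′ end falls inside exon 1 of Gm28928. In that annotation 97 of the 321 bases of exon 1, and all of exons 2 and 3, lie within the span of Dpp10. Reads from a long Dpp10 precursor and from Gm28928 can therefore not be told apart by position over most of the locus, and which of the 2 a read was assigned to depended on the annotation used for counting. The RefSeq lncRNA Gm35355 (chr1:124846058-124859034) lies 18 bases beyond the 5′ end of Gm28928. Another 2 annotated genes overlap the Gm28928 span, Gm28299 and Gm37717, and neither is counted in the matrix.

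Gm28928 was among the most abundant RNAs measured, 17th of 31053 genes by summed count, with 1233326 UMIs or 0.332% of all UMIs. The label it came with names interneurons, but most of its UMIs lay elsewhere. The 8 glutamatergic classes (24726 nuclei) held 97.9% of them and the 5 GABAergic classes (5963 nuclei) 0.573%. Some groups of interneurons within those classes also held it, as given below. Classes were rebuilt by clustering, since no authors' annotation was used, and were named from marker genes. Clusters 5, 10 and 11 were glutamatergic by those markers and kept their numbers because no class name held; their leading genes included Il1rapl2 and Deptor, Scn7a and Hgf, and Tcerg1l and Npr3. Levels are TMM-scaled CPM, the gene's share of the UMIs of a class summed within a mouse and not divided by gene length, over the 20 classes with at least 20 nuclei in every mouse.

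The highest levels, over 6 mice, were 6497 ± 754 CPM (SD, n = 6) in cluster 5, 6406 ± 713 in cluster 11, 6219 ± 410 in cluster 10 and 6178 ± 1012 in L6 CT, the corticothalamic cells of layer 6. These 4 overlapped each other over mice. L6 IT, the intratelencephalic cells of layer 6, followed at 4096 ± 502 CPM, below every mouse's L6 CT value and above every value of the next class. L2/3 IT (2069 ± 311 CPM) and L4/5 IT (2052 ± 481 CPM), the upper-layer intratelencephalic cells, overlapped fully. L5/6 NP, the near-projecting cells, were the lowest glutamatergic class at 654 ± 175 CPM. Even there the lowest mouse, 491 CPM, lay above the highest value of any GABAergic class in any mouse, 416 CPM. Of the 19 steps in the order of the 20 classes, 3 separated neighbours in every mouse: L6 CT from L6 IT, L6 IT from L2/3 IT, and L4/5 IT from endothelial nuclei.

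Among interneurons, Sst (216 ± 48.9 CPM), Lamp5 (201 ± 28.6), Sncg (193 ± 157) and Vip (137 ± 50.6) did not separate from their neighbours in the order. Pvalb, the fast-spiking cells, had the lowest level of all 20 classes at 37.3 ± 12.6 CPM. Oligodendrocytes (82.7 ± 25.98 CPM), astrocytes (81.1 ± 41.2) and oligodendrocyte precursors (OPC, 52.0 ± 15.0) lay in the same low range as the interneurons. Endothelial (709 ± 409), pericyte and smooth muscle (553 ± 416) and microglia and macrophage nuclei (494 ± 258) had higher means with a wide spread between mice. In these 3 classes 87.2%, 77.6% and 81.5% of the Gm28928 UMIs sat in 9, 10 and 15 nuclei with 10 or more each. A macrophage cluster of 105 nuclei within the microglia and macrophage class held 2781 CPM of Gm28928 without TMM scaling (raw CPM), beside 2472 raw CPM of 5 pan-GABAergic genes and 633 of 5 pan-glutamatergic genes, so RNA of neuronal markers was present in it.

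**Figure D1:**
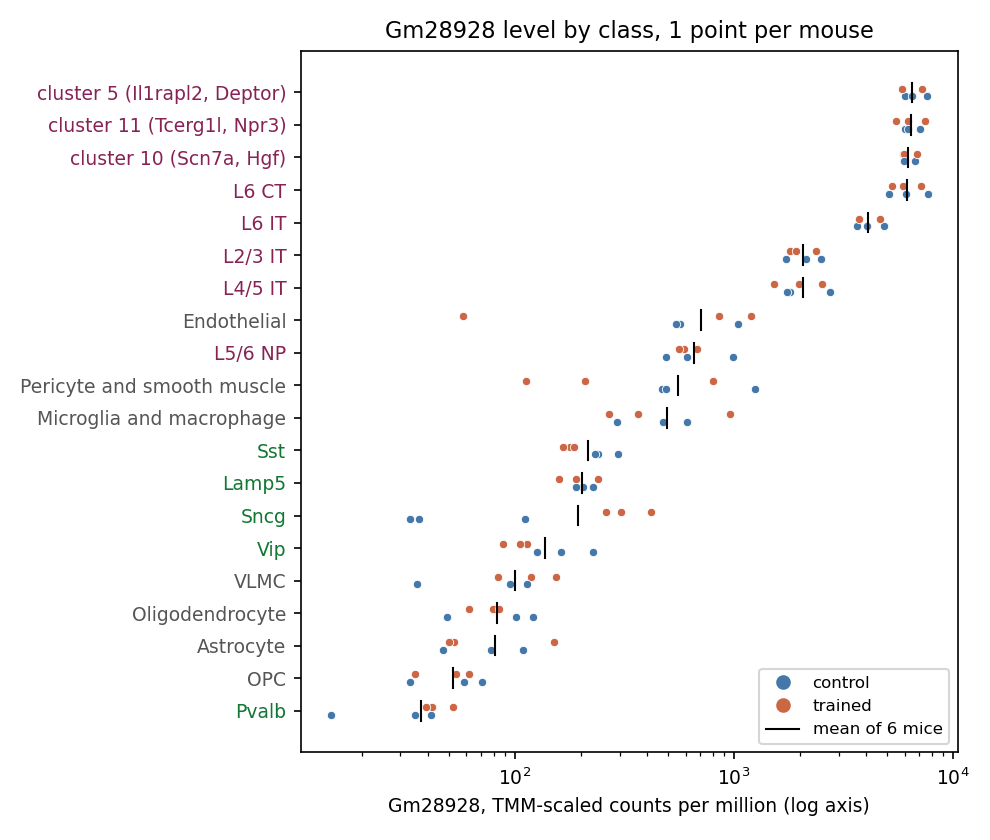
Gm28928 level in each of the 20 classes on a log axis, in TMM-scaled CPM, with 1 point per mouse coloured by group and a bar at the mean of 6 mice. Class names are purple for glutamatergic, green for GABAergic and grey for other classes; the 8 glutamatergic classes all lie above the 5 GABAergic ones, and Sncg is the class where the colours part by the widest gap.

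The share of nuclei with a UMI also set glutamatergic classes other than L5/6 NP above interneurons. It did not keep the order of the levels among the lower classes. In L5/6 NP it was 38.0% to 53.0% per mouse, which overlapped Lamp5 (33.6% to 44.8%) and Sst (30.7% to 41.6%). In L6 CT 99.98% of nuclei held at least 1 Gm28928 UMI at a median depth of 8129 UMIs, and in L2/3 IT 97.9% to 100% per mouse did. Of Sst nuclei 35.9% had a UMI at a median depth of 8019, of Lamp5 37.9% at 6742, of Sncg 22.2% at 8375, of Vip 20.5% at 5355 and of Pvalb 16.7% at 8765. Oligodendrocytes, at a median of 1724 UMIs, gave 14.2%, and astrocytes, at 2774.5, gave 15.7%. With every nucleus thinned to 2000 UMIs and shallower ones left out (1 to 17 nuclei in each interneuron class but Sncg, which lost 0, and 3854 of 6005 oligodendrocytes), the share per mouse was 14.6% to 22.4% in Sst and 17.6% to 22.2% in Lamp5. It was 6.67% to 17.3% in Vip, 5.56% to 11.5% in Sncg and 3.30% to 7.67% in Pvalb, against 8.40% to 18.7% in oligodendrocytes. The class-wide shares of Pvalb, Sncg and Vip thus did not exceed the oligodendrocyte range at equal depth, and no expression above background is read from them. How much RNA free in the droplets added to any of these shares was not tested. In Sst and Lamp5 the thinned shares reached past the oligodendrocyte range in some mice and overlapped it in others. L5/6 NP, at 23.1% to 37.1% after thinning, lay above every interneuron class.

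Within Sst and Lamp5 the level was not even. Re-clustering each class without Gm28928 among the variable genes gave 14 Sst sub-clusters of at least 20 nuclei. The values that follow leave out nuclei with 3 or more UMIs of 5 pan-glutamatergic genes (the vesicular glutamate transporter Slc17a7 and Sv2b among them), a choice made after the data were seen. Over the Sst sub-clusters Gm28928 then ran from 20.3 to 571 raw CPM. The sub-cluster of 294 nuclei led by Plpp4, Reln and Lypd6b was highest: 147 of its nuclei had a UMI and 46 had 10 or more, and its level before the removal was 653, 432, 771, 612, 259 and 445 raw CPM in mice 1 to 6. Every mouse was thus far above the Pvalb level in that sub-cluster. A second Sst sub-cluster, of 190 nuclei led by Gm32647, 9630002D21Rik and Grik1, stood at 340 raw CPM, with 32.4 raw CPM of the pan-glutamatergic genes. A small one of 43 nuclei fell from 1429 to 439 when the nuclei with 3 or more such UMIs, 37 of them, were left out. In Lamp5, 2 sub-clusters led by Gm30835, Ndnf and Reln (106 and 96 nuclei) stood at 317 and 282 raw CPM, where Ndnf and Reln mark neurogliaform and related cells of layer 1. The 12 Pvalb sub-clusters of at least 20 nuclei lay between 13.4 and 27.5 raw CPM.

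**Figure D2:**
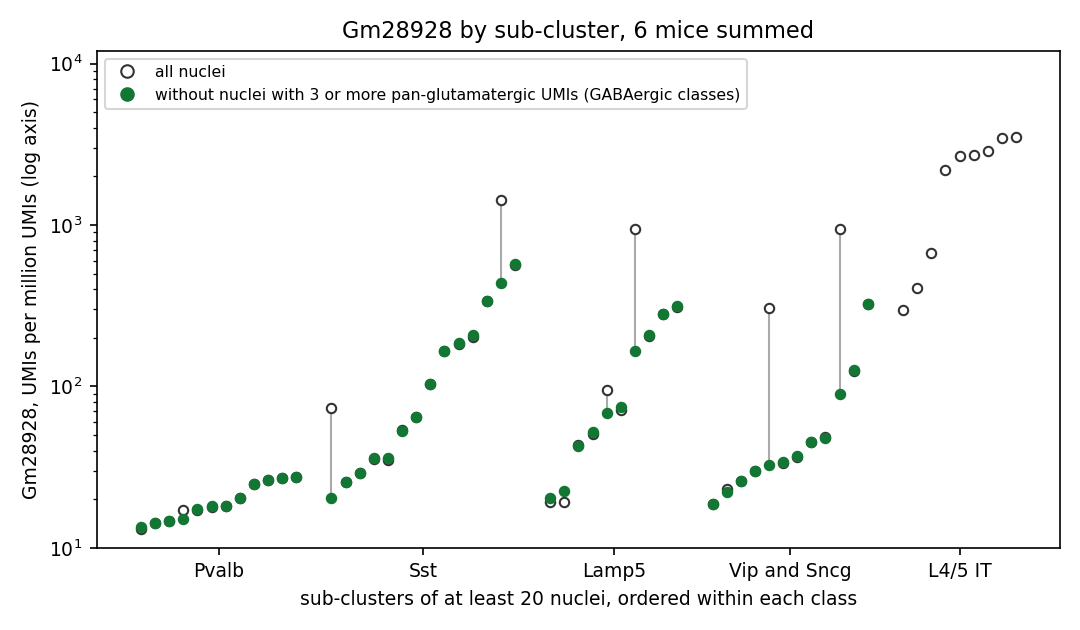
Gm28928 in raw CPM (log axis) in sub-clusters of at least 20 nuclei, 6 mice summed, ordered within each class. Open circles are all nuclei and green points leave out nuclei with 3 or more pan-glutamatergic UMIs; the grey lines show that a few sub-clusters fall steeply on that removal, while the top Sst sub-cluster stays at 571.

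The glutamatergic L4/5 IT class was itself split. Of its 9 sub-clusters, 6 had Gm28928 at 2194 to 3504 raw CPM with 92.6% to 100% of nuclei positive. The other 3, with 1388 nuclei, held 296 to 671 raw CPM with 39.3% to 63.0% positive. Their leading genes, such as Cbln4, Pld5, Col8a1 and Gm20752, were also among those of high sub-clusters and did not mark the low ones. The pan-glutamatergic genes overlapped between the sets, 1010 to 1255 raw CPM in the low sub-clusters and 1147 to 1461 in the others. The low sub-clusters made up 6.09%, 51.5%, 41.6%, 35.0%, 42.3% and 23.3% of L4/5 IT nuclei in mice 1 to 6. The share of L4/5 IT nuclei with a Gm28928 UMI ran the other way, at 97.1%, 64.2%, 77.4%, 82.4%, 71.6% and 86.8%. The low sub-clusters had been set apart by their share of nuclei with a UMI. The opposite order over mice therefore follows from that choice and is no separate result.

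Across class-by-mouse sums of log2(CPM + 1), 120 points from 20 classes of 6 mice, the genes most like Gm28928 included Homer1 (Pearson r = 0.93), Sv2b (0.92), R3hdm1 (0.89) and AC129186.1 (0.89). Homer1 encodes a postsynaptic scaffold and Sv2b a synaptic vesicle protein. These points share mice, libraries and depth, so the correlations describe the class pattern. Dpp10 ranked 346th of 12433 genes, at r = 0.61. Over the 30 sums of the 5 GABAergic classes the leading genes were Kcnc4 (0.83), Kank3 (0.82), 2010300C02Rik (0.79), Gramd2 (0.79) and Cdkl2 (0.79), all lowest in Pvalb, and Dpp10 had r = 0.23.

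Dpp10 was set beside Gm28928 in every class because of the shared locus. In L6 CT Dpp10 stood at 1490 ± 200 CPM and Gm28928 at 4.15 times its raw level. In Sst, Dpp10 was at 1185 ± 145 CPM, close to its level in L2/3 IT (1262 ± 144), while Gm28928 was 0.183 times the Dpp10 level. OPC had 705 ± 62.6 CPM of Dpp10 and the ratio was 0.0740, and in Pvalb it was 0.0532. A high Dpp10 level thus came with a high Gm28928 level in glutamatergic classes but not in interneurons or OPC.

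**Figure D3:**
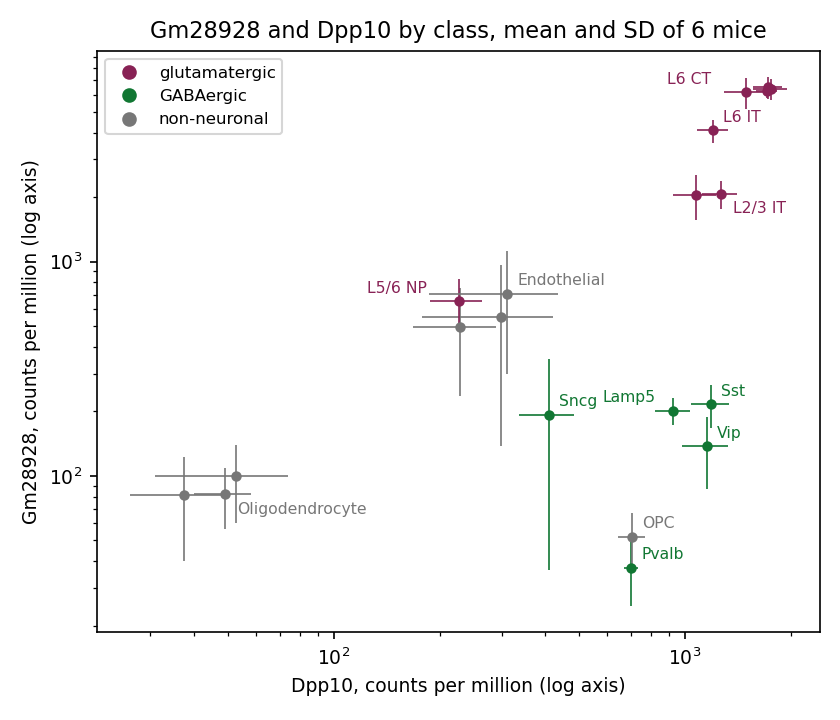
Gm28928 against Dpp10 in the 20 classes, both in TMM-scaled CPM on log axes, as the mean of 6 mice with SD bars. Glutamatergic classes other than L5/6 NP sit at the top right. L5/6 NP lies at 226 CPM of Dpp10 and 654 CPM of Gm28928. Interneurons and OPC (52.0 CPM of Gm28928) lie below all glutamatergic classes in Gm28928, also Sst, whose Dpp10 level is close to that of L2/3 IT.

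The levels also varied by mouse in a way that cut across the groups. In 7 of the 8 glutamatergic classes the highest 2 mice were control mouse 1 and trained mouse 6. Relative to the class mean, the median over the 8 classes was 1.19 in mouse 1, 0.904 in mouse 2, 0.908 in mouse 3, 0.919 in mouse 4, 0.977 in mouse 5 and 1.13 in mouse 6. Dpp10 had mice 1 and 6 on top in 6 of the 8, with ratios of 1.13 and 1.10. Median UMIs per nucleus were 6874 and 7205 in mice 1 and 6, and 6843, 5215, 5749 and 5302 in mice 2 to 5; the part of depth in this spread was not tested.

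Over all nuclei, control mice 1, 3 and 5 had 4025, 2921 and 2937 CPM of Gm28928 and trained mice 2, 4 and 6 had 3079, 3150 and 3733. The groups overlapped, and the log2 difference, trained minus control, was 0.01 ± 0.14 (SE). It lay between -0.19 and 0.00 in the 8 glutamatergic classes, each with overlapping groups. In L2/3 IT, for example, controls had 2495, 1724 and 2124 CPM and trained mice 1796, 1919 and 2358, a difference of -0.06 ± 0.15. The largest glutamatergic difference was in L5/6 NP, -0.19 ± 0.20.

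The Sncg class had 275 nuclei in all and 26 to 72 per mouse. It held Cnr1 at 1948 raw CPM, the neuropeptide gene Cck at 528 and Sncg itself at 21.7, against 0 for Sncg in Vip, Sst and Pvalb nuclei. Of the other genes on its marker list, Col14a1 (124), Krt73 (10.9) and Npas1 (251) were also highest there among the interneuron classes. Cxcl14 (239, against 256 in Vip) and Serpinf1 (1.50, against 1.89 in Pvalb) were not. The Vip gene stood at 561 raw CPM, against 2734 in the Vip class. In Sncg nuclei the control mice had 33.2, 36.5 and 111 CPM of Gm28928 and the trained mice 416, 259 and 303. Every trained mouse lay above every control, with means of 326 ± 81.2 (SD, n = 3) against 60.3 ± 44.0 CPM and a log2 difference of 2.65 ± 0.29. This is the contrast that chose the gene. By the same rule, an adjusted p under 0.05 in edgeR's quasi-likelihood test, 2 of 6028 genes tested in Sncg nuclei were called, 0.0332%. Gm28928 was 1 of these 2, and since that call chose the gene, it is no support for the difference. Of the 6028 genes, 5.14% lay higher in every trained mouse than in any control.

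The UMIs behind that difference came from few nuclei. Sncg nuclei held 480 Gm28928 UMIs, and 408 of them, 85.0%, sat in 6 nuclei. They carried 121, 95, 91, 64, 22 and 15 Gm28928 UMIs and came from mice 2, 6, 4, 2, 5 and 6, so 5 were from trained mice and 1 from a control. Of the other 269 nuclei, 214 had none and the highest had 9. The same 6 nuclei held 27, 12, 15, 11, 8 and 9 UMIs of the 5 pan-glutamatergic genes, while 204 of the other 269 had 0. The 6 also held 7 to 84 UMIs of Cnr1, the cannabinoid receptor of Sncg cells, so markers of both cell kinds occurred in one barcode. Their depth was 9639 to 44780 UMIs, against a median of 8361 in the other Sncg nuclei. Scrublet had called none of them a doublet; its scores for them were 0.0318 to 0.111, against a median of 0.0217 in the rest.

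**Figure D4:**
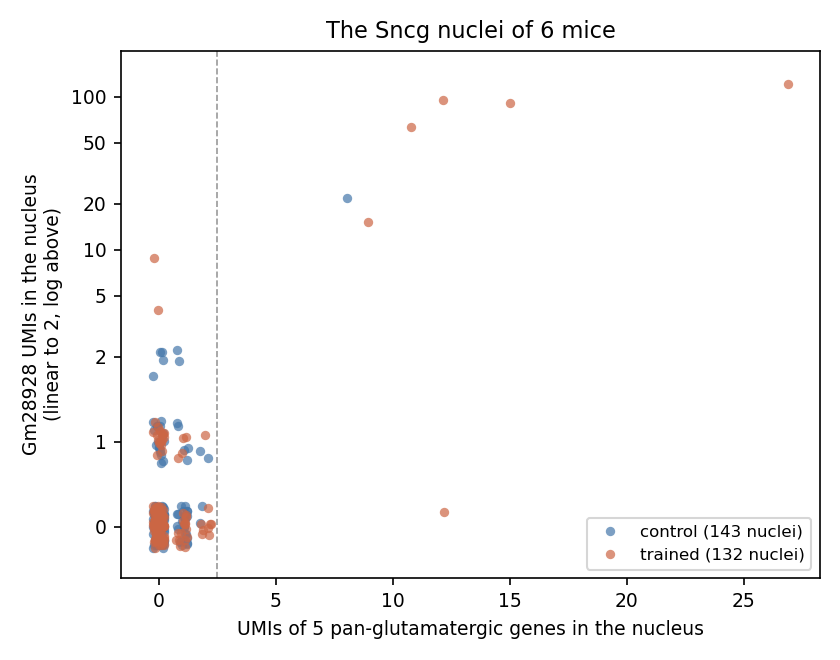
Each point is 1 of the 275 Sncg nuclei, with the UMIs of 5 pan-glutamatergic genes on the x axis and Gm28928 UMIs on the y axis (linear to 2, log above), spread slightly to show overlaps. The 6 nuclei with 10 or more Gm28928 UMIs all lie right of the dashed line at 3 or more pan-glutamatergic UMIs, and 1 further nucleus lies there with 0 Gm28928.

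Without the 7 Sncg nuclei that held 3 or more pan-glutamatergic UMIs, 6 from trained mice and 1 from a control, the control mice had 33.4, 37.4 and 17.9 CPM and the trained mice 30.0, 46.2 and 18.1. The groups then overlapped, the means were 29.5 ± 10.3 and 31.4 ± 14.1 CPM, and the log2 difference was 0.03 ± 0.40. The share of Sncg nuclei with any Gm28928 UMI did not separate the groups even with all nuclei: 25.0% in mouse 1 (exact 95% binomial interval 15.5% to 36.6%), 9 of 45 nuclei in mouse 3 (9.58% to 34.6%) and 19.2% in mouse 5 (6.55% to 39.4%), against 25.0% in mouse 2 (13.2% to 40.3%), 10 of 50 nuclei in mouse 4 (10.03% to 33.7%) and 21.1% in mouse 6 (9.55% to 37.3%). These intervals cover counting error only.

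In Sncg nuclei the summed pan-glutamatergic genes, like Gm28928, were higher in every trained mouse than in any control. They made up 33.0, 37.9 and 44.9 raw CPM in the control mice and 95.8, 96.1 and 75.9 in the trained mice, all 5 genes detected. Of the 23 marker lists of other classes or of broad cell kinds summed in Sncg nuclei, this was the only 1 whose trained mice all lay above the controls. In 4 lists the trained mice all lay below, and 18 overlapped. The pan-GABAergic list was one of the 4, at 7175 to 7714 raw CPM in controls and 5811 to 6948 in trained mice. Of single genes tested in Sncg nuclei, 5.14% lay higher in every trained mouse, so 1 list of 23 is not read as a result about that list. The share of genes lying lower in every trained mouse is not given here, and the 4 lists are not read either. The other gene called in Sncg nuclei was Car10, a carbonic anhydrase-related protein, with a log2 difference of 1.17 ± 0.21 (adjusted p = 0.0443, edgeR quasi-likelihood test). Without the 7 nuclei Car10 was at 0.72 ± 0.25 (adjusted p = 0.998), and of 5524 genes tested 0 were called, with 208 at an unadjusted p under 0.05.

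In Vip nuclei the order was the opposite. The control mice had 162, 227 and 126 CPM and the trained mice 114, 105 and 88.3, so every trained mouse lay below every control, and the log2 difference was -0.75 ± 0.20. Of the genes tested in Vip nuclei, 4.43% lay lower in every trained mouse. Here 25 nuclei, 16 from controls and 9 from trained mice, held 3 or more pan-glutamatergic UMIs, and they carried 49.9% of the class's Gm28928 UMIs. Without them the controls had 72.7, 77.8 and 93.3 CPM and the trained mice 114, 36.4 and 89.0, with a difference of -0.04 ± 0.27. Among what remained, 1 Vip sub-cluster of 94 nuclei stood at 322 raw CPM with no nucleus of 3 or more pan-glutamatergic UMIs, and 35.1% of its nuclei had a Gm28928 UMI.

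Sst nuclei had 239, 295 and 232 CPM in the control mice and 178, 186 and 165 in the trained mice, without overlap, a log2 difference of -0.54 ± 0.11. Of the genes tested in Sst nuclei, 4.23% lay lower in every trained mouse. Without the 53 nuclei with 3 or more pan-glutamatergic UMIs the controls had 207, 214 and 123 CPM and the trained mice 155, 165 and 130. The groups overlapped and the difference was -0.28 ± 0.18. Lamp5 nuclei had 205, 189 and 227 CPM in controls and 159, 189 and 238 in trained mice, with a difference of -0.08 ± 0.14. Pvalb nuclei had 34.9, 41.5 and 14.4 CPM in controls and 41.7, 52.2 and 39.1 in trained mice, a difference of 0.54 ± 0.27 that became -0.31 ± 0.26 without 26 such nuclei. Over all GABAergic nuclei the difference was -0.17 ± 0.11, with 139, 170 and 125 CPM in controls and 130, 127 and 129 in trained mice.

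**Figure D5:**
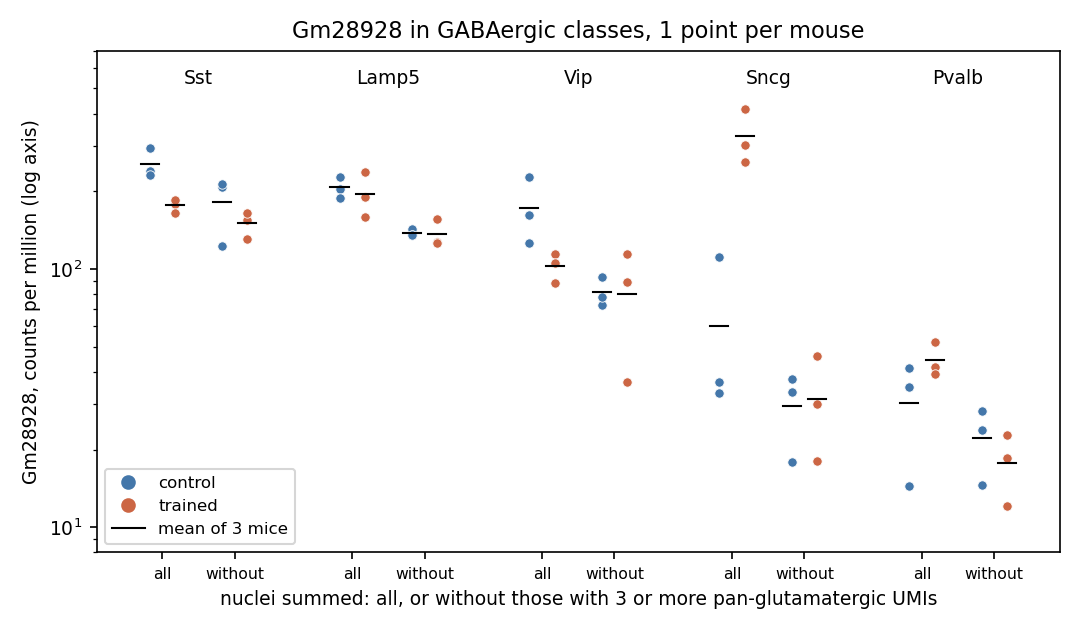
Gm28928 per mouse in the 5 GABAergic classes, in TMM-scaled CPM on a log axis, with a bar at each group's mean of 3 mice. Each class is shown with all nuclei and without those that held 3 or more pan-glutamatergic UMIs; the Sncg gap between 60.3 and 326 CPM closes to 29.5 and 31.4.

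Of the genes whose bodies lie within 2 Mb of Gm28928, 8 besides it are in the matrix: Dpp10, 1700121L03Rik, Actr3 (a subunit of the Arp2/3 actin-branching complex), Gm28706, Slc35f5, Gpr39 (a zinc-sensing receptor), Lypd1 and Nckap5. They gave 86 tests over the 20 classes, trained against control, and edgeR's quasi-likelihood test called 0 of them; 6 had an unadjusted p under 0.05, and DESeq2 also called 0. Over all genes tested, that rule called 0 genes in 18 of the 20 classes, 0.0332% in Sncg and 0.17% in astrocytes. In Sncg nuclei Dpp10 was at 376, 501 and 410 CPM in controls and 488, 312 and 368 in trained mice, with a difference of -0.13 ± 0.18. Actr3 was expressed in every class, from 38.7 CPM in astrocytes to 170 in microglia and macrophages. Nckap5 was highest in OPC (796 ± 64.0 CPM) and astrocytes (553 ± 54.9), where Gm28928 was low. Lypd1 peaked in L5/6 NP (206 ± 15.3 CPM), and 1700121L03Rik and Gm28706 passed the filter in none of the 20 classes.

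A comparison that the choice of the gene did not use set nuclei with signs of recent activity against silent ones in the same class and mouse. Activity was read from 27 immediate early genes, such as Fos, Arc and Npas4, which neurons transcribe within minutes of firing. Nuclei were thinned to 2000 UMIs, and those with 3 or more UMIs of the list were called activity-high and those with 0 silent. In 9 classes every mouse had at least 15 nuclei of each state, and in 2 of the 9 Gm28928 differed in edgeR's quasi-likelihood test with the mouse as a block. In L6 CT it was lower in activity-high nuclei in 5 of 6 mice, 5954 ± 1045 against 6539 ± 998 CPM (SD, n = 6), a log2 difference of -0.14 ± 0.03 (adjusted p = 0.00177). Dpp10 was lower there too, with a difference of -0.18 ± 0.04 (adjusted p = 0.00113). That test called 25.6% of the genes in L6 CT.

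Astrocytes went the other way. Gm28928 was higher in activity-high astrocytes in 5 of 6 mice, 188 ± 147 against 84.3 ± 62.6 CPM, a log2 difference of 1.14 ± 0.21 (adjusted p = 0.00165, edgeR quasi-likelihood test, 1.3% of genes called). The high state held 7 to 74 Gm28928 UMIs per mouse. The pan-glutamatergic genes were at 135 ± 59.2 raw CPM in activity-high and 111 ± 27.7 in silent astrocytes, and their part in the difference was not tested. The call was lost without control mouse 5 (0.80 ± 0.19, adjusted p = 0.0546, edgeR). It was also lost in DESeq2 with all 6 mice (1.00 ± 0.46, adjusted p = 0.924). With 2 or more UMIs as the high state it was lost too, at 0.44 ± 0.13 (adjusted p = 0.0896, edgeR).

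Vip was the only interneuron class with enough nuclei in both states. Its difference of 1.08 ± 0.34 missed the threshold (adjusted p = 0.0605, edgeR quasi-likelihood test), and Gm28928 was higher in the activity-high state in 4 of 6 mice. In the same test it passed without trained mouse 2 (1.43 ± 0.33, adjusted p = 0.0140), without control mouse 5 (1.52 ± 0.34, adjusted p = 0.00959), without trained mouse 6 (0.83 ± 0.25, adjusted p = 0.0346) and without a filter on low counts (0.98 ± 0.19, adjusted p = 0.000102). It did not pass without any of the other 3 mice, in DESeq2 (adjusted p = 0.570) or with 2 or more UMIs as the high state (adjusted p = 0.272). The pan-glutamatergic genes were at 102 ± 44.1 raw CPM in activity-high and 44.98 ± 16.9 in silent Vip nuclei, and their part was not tested here either. With 3 or more UMIs as the high state, edgeR called 4.94% of genes in Vip nuclei. In the other 6 classes, all glutamatergic, where it called 14.9% of genes in L2/3 IT, 12.4% in L4/5 IT, 18.2% in L6 IT, 6.36% in cluster 10, 3.77% in cluster 11 and 8.4% in cluster 5, differences lay between -0.15 and 0.06 and none passed the threshold. Cluster 10 came nearest, at -0.15 ± 0.05 (adjusted p = 0.0823, edgeR quasi-likelihood test). With 2 or more UMIs as the high state, cluster 10 (-0.13 ± 0.04, adjusted p = 0.0310, edgeR, 494 of 8939 genes called) and L2/3 IT (-0.09 ± 0.03, adjusted p = 0.0108, 1584 of 11652) passed in that test. So did L5/6 NP (0.75 ± 0.14, adjusted p = 0.00119, edgeR, 236 of 6291 genes called) and Pvalb (1.63 ± 0.31, adjusted p = 0.00399, 23 of 9062), which had too few nuclei at 3 or more. In Pvalb, Gm28928 was higher in the activity-high state in only 3 of 6 mice, at 83.7 ± 105 against 27.4 ± 13.9 CPM. L2/3 IT also passed without a filter on low counts (-0.10 ± 0.03, adjusted p = 0.0307).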

How the data were processed

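Nuclei of 6 mice were profiled with droplet 3′ RNA-seq. The authors deposited UMI counts per gene and nucleus in 1 matrix, for which the submitters' processing notes name Cell Ranger 4.0.0 and mm10. The treatment of reads in introns is not given in the sources used here. Deposited lists of genes and barcodes served as names. The gene, its neighbours and the marker lists were chosen with earlier results of these data known.

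Nuclei with at least 500 genes and under 5% mitochondrial UMIs were kept, and Scrublet (expected rate 6%) removed 2391 doublets, 4.63% of those that passed. Nuclei were clustered in scanpy 1.11.5 (30 components, 20 neighbours, Leiden resolution 1) with Gm28928 left out of the variable genes. Classes were named from markers. Counts were summed per mouse and class, where fewer expressing cells and less RNA per cell cannot be told apart, and fitted with edgeR 4.0.16 (TMM, quasi-likelihood, filterByExpr) over all genes with Benjamini-Hochberg adjustment at 0.05. The scripts were tested on simulated data. DESeq2 1.42.0, other scalings, filters, resolutions and left-out mice were tried. The labels do not name litters or cultures beyond the mouse. Genes named besides Gm28928 were its neighbours within 2 Mb, the 5 most correlated genes over all classes and over GABAergic classes (mean of at least 5 CPM), marker genes, and genes called in Sncg nuclei. One gene that this rule names is not reported here. Gene models are GENCODE M21.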

Additional observations from a re-analysis of the deposited data

Results flagged for a closer look

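Gm28928 went in opposite directions in interneuron classes. In Sncg nuclei, the contrast that chose the gene, every trained mouse lay above every control mouse, with a log2 difference of 2.65. Of all genes tested there, 5.14% lay higher in every trained mouse. In Vip nuclei every trained mouse lay below every control, at -0.75, and in Sst nuclei likewise, at -0.54. Of all genes tested, 4.43% in Vip and 4.23% in Sst nuclei lay lower in every trained mouse. The difference between the classes was not tested. Without nuclei of 3 or more pan-glutamatergic UMIs, a removal chosen after seeing the data, the groups overlapped in all 3 classes.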

How the results depend on the processing

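In Sncg nuclei the log2 difference of 2.65 ranged from 2.23 to 3.24 when 1 mouse was left out. In DESeq2 that difference was 2.49 ± 0.56 (SE), and Gm28928 was not called. The Sncg difference was -0.043 with doublets kept. It was 0.033 with Gm28928 kept among the variable genes, when the gene itself helps to sort the nuclei and none of the 6 richest in it was named Sncg. Leaving out nuclei of 3 or more pan-glutamatergic UMIs, chosen after seeing the data, gave the same fit. Both settings left 268 Sncg nuclei, so they do not count as separate checks. In Vip nuclei the difference of -0.75 ranged from -0.91 to -0.50 over left-out mice. It was -0.15 with nuclei thinned to 2000 UMIs, 0.40 with doublets kept, 0.61 with Gm28928 kept among the variable genes and -0.039 without the pan-glutamatergic nuclei. The cause of the Sncg and Vip differences was not tested. Sncg nuclei thinned to 2000 UMIs gave no value, because Gm28928 did not pass the filter. Leaving out 1 mouse gave -0.26 to -0.03 over all GABAergic nuclei and -0.08 to 0.18 over all nuclei. Neighbouring genes called were 0 to 1 over left-out mice; the 1 was Dpp10 in pericytes and smooth muscle without trained mouse 6. Classes called between activity states were 2, with 2 to 3 over left-out mice, 1 in DESeq2, 4 without a filter and 5 of 13 classes with 2 or more UMIs as the high state, a count that no longer held astrocytes. No paired analysis was possible because the labels link no control mouse (1, 3 and 5) to a trained mouse (2, 4 and 6). Interneuron levels rest on few UMIs, 480 in Sncg nuclei.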
